A study of Mus musculus with 4 samples.

Results

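Fibroblasts of the mouse carotid artery 14 days after wire injury were described gene by gene from the day 14 single-cell RNA-seq library, and the cells with a Cthrc1 transcript were compared with those without one. A cell barcode was kept as a fibroblast when it held at least 500 genes and 1000 UMIs (unique molecular identifiers, each counting 1 captured transcript), at most 10% mitochondrial UMIs and at most 1 UMI of Ptprc, the gene of the leukocyte antigen CD45. Its fibroblast genes Dcn, Lum, Dpt, Pdgfra, Serpinf1 and Mfap5 had to make up at least 0.1% of its UMIs, and its contractile genes Myh11, Acta2, Tagln and Myl9 less than 0.5%. Of the 1138 barcodes of the day 14 library 492 met every condition, from 6161 barcodes in the series. Because measured values chose the cells, the levels of these rule genes are a description of the choice.

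Adventitial fibroblasts form the outer coat of an artery, where they make and remodel the collagen and elastin matrix, guide leukocytes through chemokines and complement, and respond to a wound by laying down new matrix. Cthrc1 encodes collagen triple helix repeat containing 1, a secreted glycoprotein known from activated matrix-producing fibroblasts and from the remodelling adventitia of injured arteries. Cells of the uninjured adventitia are known for Pi16, Ly6a, Clec3b and Dpp4, and myofibroblasts for the contractile genes that the rule kept low.

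The study followed the carotid artery of male C57BL/6 mice, 11 weeks old before injury, from the uninjured vessel of day 0 to days 3, 7 and 14 after a wire was passed through the left carotid. Each of the 4 time points is 1 library in which the arteries of several mice were pooled without a tag for the animal, and vessels with signs of thrombosis were discarded. The labels give the same enzymatic digestion, dead cell removal and 10x Chromium droplet capture from transcript 3′ ends for every library. No time point has a second library, so no difference between days was tested, and differences between days cannot be told apart from differences between libraries.

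The libraries held 333, 1689, 3001 and 1138 barcodes at days 0, 3, 7 and 14, and the limits on genes, UMIs and mitochondrial share left 249, 1196, 2018 and 880 of them. The fibroblast rule took 212, 160, 225 and 492 cells. Fibroblasts were 55.9% of the day 14 barcodes inside the limits, with an exact binomial 95% interval of 52.6 to 59.2%, which like every interval here covers counting error only. At the earlier times it was 85.1, 13.4 and 11.1% in the order of days. The median fibroblast held 10106.5, 24850, 12129 and 18773.5 UMIs in the order of days, and the day 14 fibroblasts summed to 8918835 UMIs. Levels are given as CPM, the UMIs of a gene over all UMIs of the group of cells, scaled to a common total of 1000000. Since 1 transcript end gives 1 UMI whatever the length of the gene, levels of different genes are set side by side without a length correction.

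Cell barcodes recurred between libraries. Days 0 and 3 shared 152, days 7 and 14 shared 64 and days 3 and 7 shared 1, while day 14 shared none with days 0 and 3. The copy with fewer UMIs held a median of 4.39% of the UMIs of its partner between days 0 and 3, and 1.12% between days 7 and 14. Among the day 14 fibroblasts 3 carried a shared barcode, against 101, 52 and 29 at the 3 earlier times. Of these, 2 were the copy with fewer UMIs at day 14, and 6, 17 and 1 at the earlier times. The counts over all genes between days are therefore also given without either copy, and the counts by list were not repeated without them. Leaving out only the copy with fewer UMIs kept 143 of 144 higher and 119 of 119 lower genes past 2-fold against day 0. Against day 3 it kept 251 of 252 and 194 of 194, and against day 7 108 of 108 and 92 of 92.

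By the marker lists below, the day 14 cells matched the fibroblast label. The rule genes summed to 22518 CPM, with a median of 2.16% of a cell's UMIs. A separate list of 12 fibroblast markers that the rule did not use summed to 78473 CPM, with none at 0, against 1352 CPM in the 268 day 14 barcodes with 2 or more Ptprc UMIs. Macrophage markers summed to 48.3 CPM in the fibroblasts and to 19322 CPM in the Ptprc barcodes. Endothelial markers summed to 35.5 CPM, lymphatic endothelial markers to 2.35 CPM with 3 of 5 genes at 0, and T cell markers to 5.27 CPM. Pericyte markers reached 480 CPM, of which the potassium channel subunit Abcc9 gave 251. Chondrocyte markers summed to 248 CPM, and 1 cell held 94.6% of those UMIs. The 6 cells just inside the fibroblast threshold had 0.102 to 0.180% of rule genes and a median of 1928.5 UMIs, and the 11 barcodes just outside it had 0.0534 to 0.0971% and 1396 UMIs. The study also describes SEM (stem cell, endothelial cell, monocyte) cells, at first labelled as fibroblasts, and proposes that they are modulated smooth muscle cells. No list here was made for them, and whether the rule took such cells was not tested.

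The 7 fibrillar collagen genes made up 7.03% of the UMIs of the day 14 fibroblasts. The order given here leaves out the rule genes, of which Dcn was highest at 12959.9 CPM, and mitochondrial, ribosomal, haemoglobin and unnamed genes. Apart from the nuclear RNA Malat1 at 33992 CPM, the highest levels belonged to the type III and type I collagen chains Col3a1 at 26763 CPM, Col1a2 at 20758 CPM and Col1a1 at 20496 CPM, and to Sparc, a collagen-binding matricellular protein, at 20402 CPM. Next came the protease inhibitor Cst3 at 7523 CPM, the calcification inhibitor Mgp at 6155 CPM, Tpt1 at 4761 CPM and the elastin gene Eln at 4388 CPM, followed by the ferritin chain Fth1 at 3601 CPM and the actin-severing and secreted protein gelsolin, Gsn, at 3461 CPM. The insulin-like growth factor binding proteins Igfbp7, at 3296 CPM, and Igfbp4, at 3074 CPM, stood beside the housekeeping genes Eef1a1 at 3199 CPM and Tmsb4x at 3091 CPM. A single cell held 11.2% of all Eln UMIs.

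Cthrc1 was detected in 355 of the 492 day 14 fibroblasts, or 72.2% with an exact interval of 68.0 to 76.1%. Its level was 723 CPM, from 6448 UMIs, with a median of 3 UMIs per cell. The cells ranged from 58 with a single UMI and 164 with 10 or more up to 1 cell with 315. In the Ptprc barcodes, which should lack the transcript, 14 of 268 had a UMI, 5.22% with an interval of 2.89 to 8.61%, at a median depth of 6902 UMIs. Thinned to 1000 UMIs each, 32.7% of the fibroblasts and 1.12% of the Ptprc barcodes kept a Cthrc1 UMI. By day the level was 5.86, 565, 1539 and 723 CPM at days 0, 3, 7 and 14, and the thinned share was 1.89, 23.1, 49.3 and 32.7%. Thinned to 3000 UMIs, without the shallower cells, the share was 1.70, 57.3, 74.3 and 52.3%. The order of days 3 and 14 thus turned when the depth and the cells kept were changed together. Day 0 therefore stood near the background of the Ptprc barcodes, and day 7 held the highest level.

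The split by a single UMI followed sequencing depth. In depth quartiles of 123 cells, with medians of 4151, 16080, 21721 and 28665 UMIs, Cthrc1 was detected in 39.8, 69.1, 83.7 and 95.9% of cells. Positive cells had a median of 21029 UMIs and negative cells of 10803. The split therefore separates cells by depth as well as by Cthrc1. For this reason the ratios are also given as the mean of the log2 ratios within the 4 depth quartiles, and as levels in cells of at least 10000 UMIs binned by their Cthrc1 level.

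**Figure D1:**
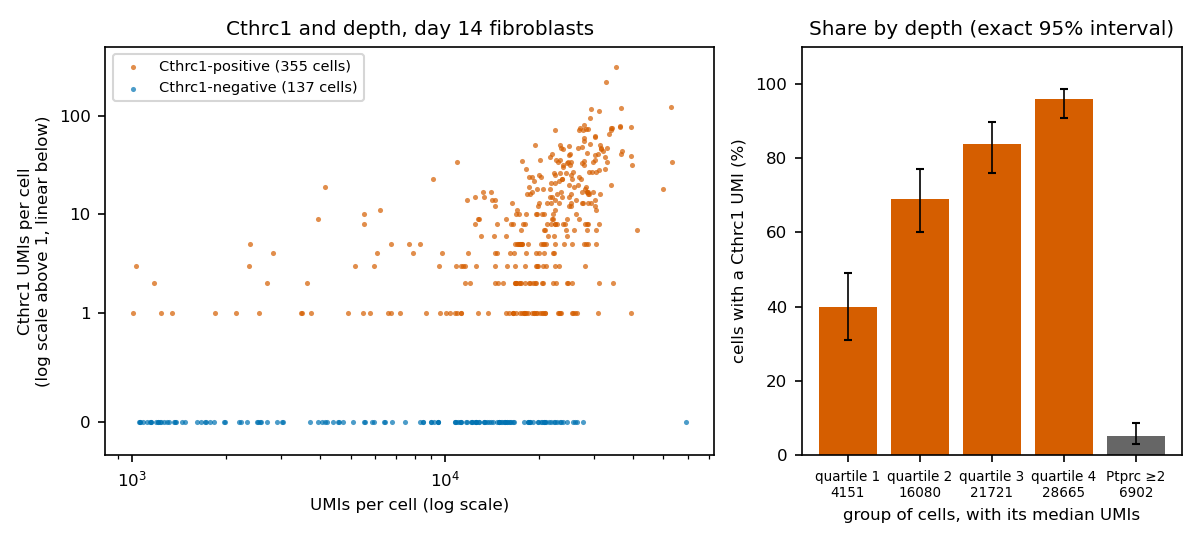
Left, Cthrc1 UMIs of each day 14 fibroblast (vertical) against its total UMIs (horizontal, log scale), with 355 positive cells in orange and 137 negative cells in blue. Right, percentage of cells with a Cthrc1 UMI in each depth quartile and in the day 14 barcodes with 2 or more Ptprc UMIs, with exact 95% binomial intervals: the share climbs from 39.8 to 95.9% with depth and is 5.22% in the Ptprc barcodes.

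Of 2977 genes with a mean of at least 50 CPM over both groups, 134 were at least 1.5-fold higher in positive cells (4.5%) and 156 at least 1.5-fold lower (5.24%), with a median log2 ratio of -0.01. The split uses the same cells and counts, so these numbers describe it and were not tested. Averaged within depth quartiles, 133 of the 134 higher genes kept their direction and 111 stayed past 1.5-fold, and of the 156 lower genes 155 kept their direction and 87 stayed past it. The 442 cells of at least 3000 UMIs were also thinned to 3000 UMIs and then split anew, with 231 positive. There 127 of the higher genes kept their direction and 64 stayed past 1.5-fold, as did 150 and 90 of the lower genes. Cells whose Cthrc1 UMIs were lost in thinning counted as negative there, so the thinned ratios compare other groups of cells. With the UMIs of each gene's highest cell left out of both groups, 134 of the higher and 117 of the lower genes stayed past it. A highest cell tends to be a larger part of the smaller negative group. Ratios therefore tend to rise, and 134 of 134 is no check of the higher genes. Counted anew over the genes that then met the 50 CPM limit, 164 were higher and 106 lower. A gene near 0 in one group enters this count only through its level in the other.

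C1qtnf3, which encodes the secreted C1q and TNF related protein CTRP3, stood furthest apart. It measured 533 CPM in positive cells, with UMIs in 144 of them, and 4.09 CPM from 6 UMIs in negative cells, a 130-fold ratio with an exact 95% interval of 59.8 to 355. The Ptprc barcodes of the same library had 2.49 CPM, so negative fibroblasts were close to background for this gene. Within depth quartiles the log2 ratio was 4.87, and thinned to 3000 UMIs it was 3.24, against 7.03 over all cells. Aspn encodes asporin, a small leucine-rich proteoglycan that binds collagen and TGF-beta. It was far more widely detected, at 1781 CPM in 336 positive cells and 317 CPM in 90 negative cells, a 5.61-fold ratio (5.12 to 6.17), and at 12 CPM in the Ptprc barcodes. Its log2 ratio of 2.49 was 2.12 within depth quartiles and 1.49 thinned to 3000 UMIs. At the other end, the complement component C3 measured 438 CPM in positive and 1794 CPM in negative cells, a 4.09-fold lower level in positive cells.

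The promoters of these genes are printed because C1qtnf3 and Aspn were among the genes with the highest ratios and C3, a complement gene, was lower in positive cells. Each is the 250 bases before the RefSeq start site of the gene in GRCm38.p6, 5′ to 3′ on the gene's own strand, at chr15:10952082-10952331 (plus strand) for C1qtnf3, chr13:49544193-49544442 (plus) for Aspn and chr17:57228137-57228386 (minus) for C3. Capitals mark matches to motif letters.
C1qtnf3: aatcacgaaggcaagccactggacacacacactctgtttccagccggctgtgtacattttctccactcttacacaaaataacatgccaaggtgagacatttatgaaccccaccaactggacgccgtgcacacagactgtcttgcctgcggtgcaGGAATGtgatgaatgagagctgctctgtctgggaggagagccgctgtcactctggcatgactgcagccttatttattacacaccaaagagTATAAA
Aspn: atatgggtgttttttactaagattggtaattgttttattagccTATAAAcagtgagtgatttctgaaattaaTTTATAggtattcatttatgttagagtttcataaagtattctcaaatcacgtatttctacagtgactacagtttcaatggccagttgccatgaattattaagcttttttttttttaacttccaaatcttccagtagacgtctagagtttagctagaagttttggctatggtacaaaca
C3: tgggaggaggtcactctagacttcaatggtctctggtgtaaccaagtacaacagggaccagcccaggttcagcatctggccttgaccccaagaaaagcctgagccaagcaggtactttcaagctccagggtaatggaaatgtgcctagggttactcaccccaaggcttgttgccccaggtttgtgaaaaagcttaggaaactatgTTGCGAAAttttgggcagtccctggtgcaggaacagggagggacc
Letters were searched on both strands of all 32851 windows of this length, and no 2 matches overlap in the windows shown. TGANTCA, the letters of AP-1, occurred in 6.75% of all windows. TTGCNNAA, those of C/EBP, occurred in 9.56%. The RUNX letters TGTGGT occurred in 14.0%, and the TEAD letters GGAATG in 12.6%. The box TATAAA near many start sites occurred in 12.4%. The NF-kB motif, also searched, occurred in 0.356%. The C1qtnf3 window holds GGAATG from base -96 to -91 and TATAAA in its last 6 bases, the Aspn window holds TATAAA from -207 to -202 and its reverse complement TTTATA from -178 to -173, and the C3 window holds TTGCGAAA from -45 to -38. The window of the chemokine gene Cxcl12, also taken but not printed, holds no match. Over the higher genes, 89 of 134 had a window, giving 112 windows of which 19.6% held GGAATG and 16.1% TATAAA. For the lower genes, 115 of 156 gave 157 windows, of which 14.6% held GGAATG and 14.6% TATAAA. TTGCNNAA was in 9.82% of the higher and 14.6% of the lower windows. Of all genes compared, 2334 gave 2973 windows, of which 11.3% held GGAATG, 7.13% TATAAA and 8.27% TTGCNNAA. TGANTCA was in 7.14% of the higher and 7.01% of the lower windows, against 4.44% over all genes compared. TGTGGT was in 12.5 and 7.01%, against 9.82%, and the NF-kB motif in 0 and 1.27%, against 0.37%. A match describes the letters only.

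Several genes shared the direction of C1qtnf3. The imprinted RNA H19 measured 128 CPM in positive and 4.77 CPM in negative cells, a 26.9-fold ratio (13.0 to 67.1), and its log2 ratio of 4.75 was 1.80 thinned to 3000 UMIs. Thbs4, a thrombospondin of tendon and stressed matrix, measured 214 against 15.7 CPM, or 13.7-fold (9.07 to 21.6), and was seen in 48 positive cells. Its log2 ratio was 3.77 over all cells and 2.47 thinned to 3000 UMIs. The secretory granule protein gene Scg2 measured 103 against 8.18 CPM, 12.7-fold, in 35 positive cells, and its log2 ratio of 3.66 was 1.47 within depth quartiles. These 3 genes were thus carried by a minority of the positive cells.

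Other genes were spread over more cells. Col8a1, a short-chain network collagen of vessel walls, measured 319.7 CPM in positive cells, with UMIs in 185 of them, and 30.0 CPM in negative cells, a 10.7-fold ratio (7.92 to 14.7). The angiopoietin-like protein gene Angptl1 measured 754 against 105 CPM, 7.19-fold (6.13 to 8.49). Nov, the CCN family member CCN3, measured 402 against 53.1 CPM, 7.57-fold (6.05 to 9.61). For these genes the log2 ratio within depth quartiles, 3.18, 2.59 and 2.49, stayed near the value over all cells, 3.41, 2.85 and 2.92, while thinned to 3000 UMIs it was 1.51, 1.34 and 1.93. Fbn2, the fibrillin of newly forming elastic fibres, measured 141 against 16.4 CPM, 8.59-fold, or a log2 ratio of 3.10 that was 2.14 when thinned. Col12a1, a collagen on the surface of fibrils, measured 142 against 29.3 CPM, 4.84-fold, and Edn1, the precursor of the vasoconstrictor endothelin, 95.8 against 17.0 CPM, 5.63-fold. Thinned to 3000 UMIs the log2 ratio of Edn1 was 0.79, against 2.49 over all cells.

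Among the genes lower in positive cells, the secreted factor Cytl1 measured 3.09 CPM against 103 CPM in negative cells, 33.3-fold lower, from 5 and 10 cells. The laminin chain Lamc3 measured 8.72 against 136 CPM, 15.6-fold lower, from 12 and 33 cells. Ntrk2, the receptor of brain-derived neurotrophic factor, measured 15.6 against 107 CPM, 6.87-fold lower, from 56 and 52 cells. Neither Lamc3 nor Ntrk2 had a UMI in the Ptprc barcodes. The matrix glycoprotein gene Sned1 measured 58.5 against 286 CPM, 4.89-fold lower, the calcium-binding matricellular gene Smoc1 29.4 against 167 CPM, 5.68-fold lower, and Fam46c 20.8 against 107 CPM, 5.14-fold lower. Ccl2, the monocyte chemokine, and Ptx3, a soluble pattern recognition protein, were 12-fold and 6.65-fold lower. A single cell held 49.4% of the Ccl2 UMIs of the negative cells. All 8 of these genes kept a lower level within depth quartiles, with log2 ratios from -1.84 for Fam46c to -5.42 for Cytl1. Thinned to 3000 UMIs they ranged from -0.99 for Smoc1, which had -2.51 over all cells, to -5.80 for Lamc3.

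**Figure D2:**
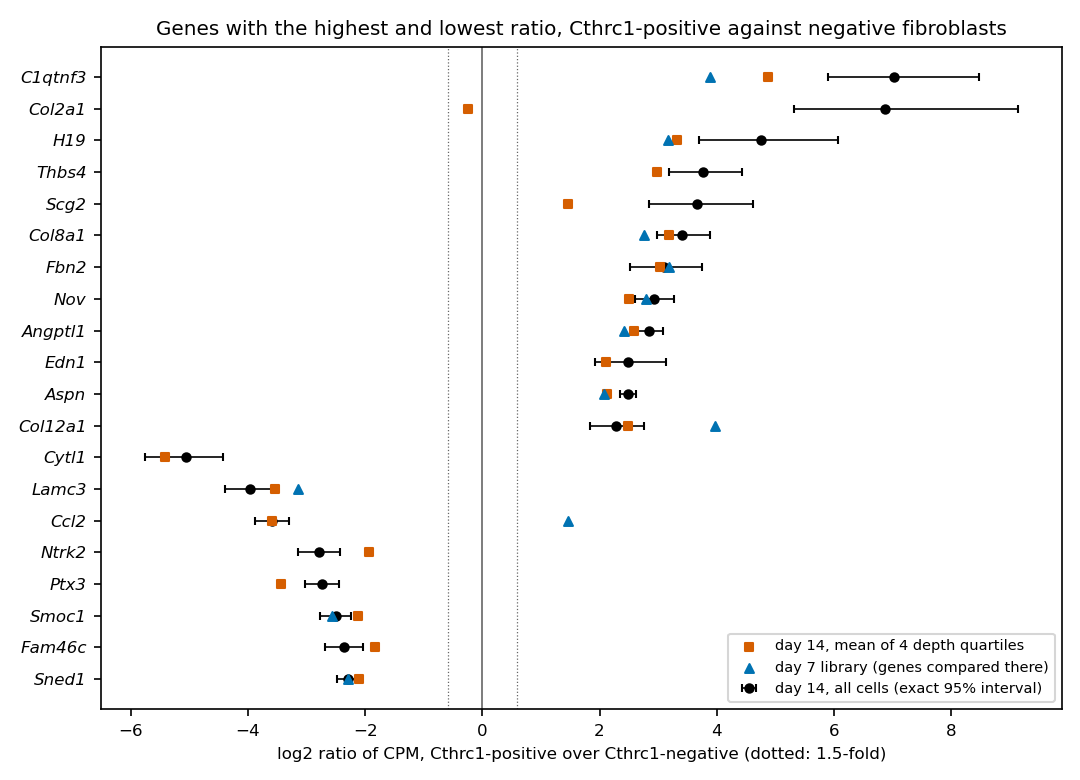
Log2 ratio of CPM in Cthrc1-positive over Cthrc1-negative day 14 fibroblasts (horizontal) for the 12 genes with the highest and the 8 with the lowest ratio; black points are all cells with the exact 95% interval, orange squares the mean within depth quartiles, blue triangles the same contrast in the day 7 library, and dotted lines 1.5-fold. All quartile means but that of Col2a1 lie on the same side of 0 as the black point, and of the genes with a triangle Ccl2 lies on the opposite side at day 7, at 1.46. Ptx3 was below the level limit at day 7 and has no triangle.

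Col2a1, the cartilage collagen, also ranked among the highest ratios, at 239 against 2.04 CPM, but 1 positive cell held 99.0% of its UMIs. Its log2 ratio of 6.87 became -0.25 within depth quartiles and 0.17 without that cell.

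The collagen genes were mostly within 1.5-fold of each other in both groups. Of 6 fibrillar collagen genes compared, 2 were higher in positive cells and none lower, with a median log2 ratio of 0.49: Col3a1 measured 28493 against 17982 CPM and Col5a2 1273 against 773 CPM. Col1a1 differed less, at 21221 against 16814 CPM. Of 11 other collagens 2 were higher, Col8a1 and Col12a1, and 2 lower, Col4a1 of basement membranes at 238 against 399.9 CPM and Col15a1 at 254 against 424 CPM. Of 17 collagen-processing genes 3 were higher. The crosslinking oxidase Lox stood out among these with 859 against 266 CPM, 3.23-fold, beside its relative Loxl1 at 749 against 459.9 CPM and the prolyl hydroxylase chain P4ha2 at 90.5 against 58.6 CPM. The propeptidase enhancer Pcolce2 was the lower one, at 248 against 540.3 CPM.

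Elastic fibre genes and matricellular genes leaned towards positive cells. Of 15 elastic fibre genes 5 were higher and 1 lower, with a median of 0.30: elastin, Eln, measured 4935 against 1614 CPM, 3.06-fold, the fibrillin Fbn1 1176 against 618 CPM, and the microfibril protein Mfap4 1758 against 916 CPM. The lower one was Efemp1, fibulin 3, at 136 against 298 CPM. Of 18 matricellular genes 10 were higher and 3 lower, with a median of 0.78. Fibronectin, Fn1, measured 2163 against 900.0 CPM, periostin, Postn, 2221 against 1091 CPM, and the CCN gene Wisp2 304 against 80.4 CPM. Thbs2 measured 415 against 200.3 CPM and Ctgf 1098 against 578 CPM. The lower ones were Smoc1, Sparcl1 at 74.5 against 139 CPM, and the TGF-beta induced adhesion protein gene Tgfbi at 186 against 424 CPM. Of 7 cartilage and tendon genes Col2a1 and the intermediate layer protein gene Cilp were higher, the latter at 325 against 87.2 CPM, and Comp, a thrombospondin of cartilage, was lower at 296 against 606 CPM. Within depth quartiles Comp lay on the other side of 0, at 0.62 against -1.03 over all cells. In cells of at least 10000 UMIs, from those without a Cthrc1 UMI to those with the most, Comp measured 591, 370, 270 and 226 CPM.

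Basement membrane, proteoglycan and protease genes were divided. Of 8 basement membrane genes, nidogen, Nid1, was higher at 797 against 503 CPM, and Lamc3 was lower. Of 8 small leucine-rich proteoglycans Aspn and Ogn were higher, the latter at 1419 against 771 CPM, and Podn was lower at 64.8 against 123 CPM. Of 14 proteases and inhibitors 3 were higher and 4 lower. The higher ones included Fap, the fibroblast activation protein, at 131 against 69.5 CPM and the aggrecanase Adamts5 at 378 against 191 CPM. The inhibitors Timp1, at 225 against 465 CPM, and Timp3, at 777 against 1206 CPM, were among the lower ones. The most UMIs of each inhibitor lay in the same negative cell, of 59201 UMIs. Without that cell Timp3 measured 777 against 974 CPM. Its log2 ratio of -0.63 became -0.33, short of the limit for a lower gene. The log2 ratio of Timp1 went from -1.05 to -0.59, at 225 against 337 CPM.

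Among genes known from the resting adventitia the split was not uniform. Of 13 compared, 5 were higher and 2 lower in positive cells, with a median of 0.00. Pi16, a marker of adventitial progenitors, measured 1498 against 663 CPM, Sema3c 203 against 69.5 CPM and Anxa3 285 against 88.6 CPM. Clec3b at 1266 against 1418 CPM, Ly6a at 859 against 948 CPM and Cd34 at 489 against 483 CPM were at near-equal levels, whereas Gsn measured 2680.4 against 7425 CPM. The rule kept contractile genes low, and of 16 contractile and myofibroblast genes 1 was higher, Tagln at 95 against 29.3 CPM. The alpha smooth muscle actin gene Acta2 measured 173 against 132 CPM.

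Immune genes leaned towards negative cells. Of 10 chemokine and cytokine genes compared 7 were lower in positive cells and 1 higher, with a median log2 ratio of -1.42. Cxcl12, which retains leukocytes and progenitors through CXCR4, measured 202 against 834 CPM, 4.12-fold lower, the eotaxin Ccl11 75.6 against 316 CPM, 4.18-fold lower, and the cytokine Il6 20.1 against 90.6 CPM, 4.50-fold lower. The alarmin Il33 was the higher one, at 158 against 103 CPM. The most UMIs of Cxcl12, Ccl11, Il6 and the chemokine gene Cxcl1 lay in each case in 1 negative cell. Without that cell their log2 ratios of -2.04, -2.06, -2.17 and -0.77 became -1.90, -1.52, -1.71 and -0.15. Cxcl1 then fell short of the limit for a lower gene. Over the processing alternatives the median of the list ran from -1.96 to -0.49. Of 10 complement genes 6 were lower, among them C3, and C4b at 424 against 881 CPM. The decay-accelerating factor Cd55 was higher, at 146 against 78.4 CPM. Of 8 acute-phase and stress genes 6 were lower, among them haptoglobin, Hp, at 22.3 against 88.6 CPM, Steap4 at 56.6 against 138 CPM, the metallothionein Mt2 at 146 against 259 CPM and the lipocalin Apod at 143 against 674 CPM. The direction of Apod rested on 1 negative cell with 842 of its UMIs: without it the levels were 143 against 101 CPM, a log2 ratio of 0.50 in place of -2.24. A positive cell held 561 Apod UMIs, so the turned direction also rested on 1 cell. Levels without both cells were not computed. The 14 macrophage markers, of which 1 was at 0 in negative cells, summed to 37.6 CPM in positive and 103 CPM in negative cells. A single negative cell held 50.3% of their 151 UMIs there, and pericyte markers summed to 426 CPM in positive cells, with 1 of 8 at 0, and to 755 CPM in negative cells. The part of other cells in these levels was not tested.

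Lipid carriers shared that direction. Of 8 lipid genes 3 were lower and none higher: apolipoprotein E, Apoe, measured 2046 against 3906 CPM, the transporter Abca8a 208 against 333 CPM, and the retinol carrier Rbp4 150.3 against 543 CPM. Of 11 glycolysis and hypoxia genes Adm was higher, at 124 against 64.0 CPM, and 2 were lower, among them Vegfa at 39.5 against 71.5 CPM. Of 9 interferon genes 1 was lower, Ifitm3 at 979 against 1546 CPM.

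Of 7 TGF-beta genes 3 were higher and none lower, among them the ligand Tgfb3 at 229.8 against 146 CPM and the activin antagonist Fst at 317 against 161 CPM. Of 6 BMP genes 2 were lower, the target genes Id1 at 31.4 against 104 CPM and Id2 at 164 against 266 CPM. Of 9 genes of the insulin-like growth factor axis Igfbp6 was higher, at 1167 against 767 CPM, and Igfbp4 lower, at 2834 against 4290.3 CPM. None of 3 PDGF and FGF genes passed 1.5-fold. Of 8 Wnt genes the receptor Fzd1 at 91.4 against 47.7 CPM and the antagonist Sfrp1 at 391 against 217 CPM were higher, and the ligand Wnt5a at 127 against 220.1 CPM was lower. Over all genes compared 4.5% were higher and 5.24% lower, and counts of 1 or 2 genes in a list are to be read against these shares. Of 18 transcription factors the list held 3 higher, among them Twist1 at 122 against 79.0 CPM and Sox4 at 193 against 115 CPM, and 2 lower, Meox2 and Prrx2. Runx1 measured 111 against 85.8 CPM. Immediate early genes, known to respond to tissue dissociation, had 2 of 18 lower and none higher, and Fos measured 2133 against 1819.8 CPM. None of 19 endoplasmic reticulum chaperones and translocon genes passed 1.5-fold, with a median of 0.01.

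Across cells of at least 10000 UMIs the levels followed the amount of Cthrc1. There were 70 such cells without a UMI, 129 below 300 CPM of Cthrc1, 104 from 300 to 1000 CPM and 83 above, and their median depths of 15813, 19355, 22881.5 and 27048 UMIs also climbed. C1qtnf3 measured 2.45, 96.9, 375 and 1248 CPM in that order, Aspn 315, 867, 1616 and 3054 CPM, and Col8a1 25.3, 136, 284 and 576 CPM. Each of these genes was higher in every next bin, and so were Eln with 1058, 2721, 5795 and 6448 CPM, Postn with 1077, 1537, 2277 and 2964 CPM and Lox with 250, 606, 951 and 1072 CPM. In the bin from 300 to 1000 CPM, 1 cell of 50011 UMIs held 4397 of the 14254 Eln UMIs. Rule genes made up 0.296% of its UMIs, and the Eln level of the bin without it was not computed. Thbs4 and Scg2 had their step at the top, from 110 to 518 CPM and from 25.6 to 305 CPM.

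The opposite order held for Cxcl12, with 926, 335, 184 and 74.3 CPM, C3, with 1893, 899, 189 and 165 CPM, and Rbp4, with 581, 239, 107 and 61.1 CPM. Ccl11 measured 353, 149, 45.9 and 26.3 CPM. All 4 genes were therefore highest in deep cells without a Cthrc1 UMI. Some genes had no order: Col1a1 measured 15820, 19512, 23584 and 20578 CPM, Apod 805, 84.6, 287 and 57.5 CPM, and Acta2 133, 201, 172 and 140 CPM. Clec3b, at 1310, 1289, 1064 and 1429 CPM, and Ly6a, at 952, 965, 744 and 861 CPM, were close to level, while Pi16 measured 591, 1075, 1124 and 2336 CPM.

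**Figure D3:**
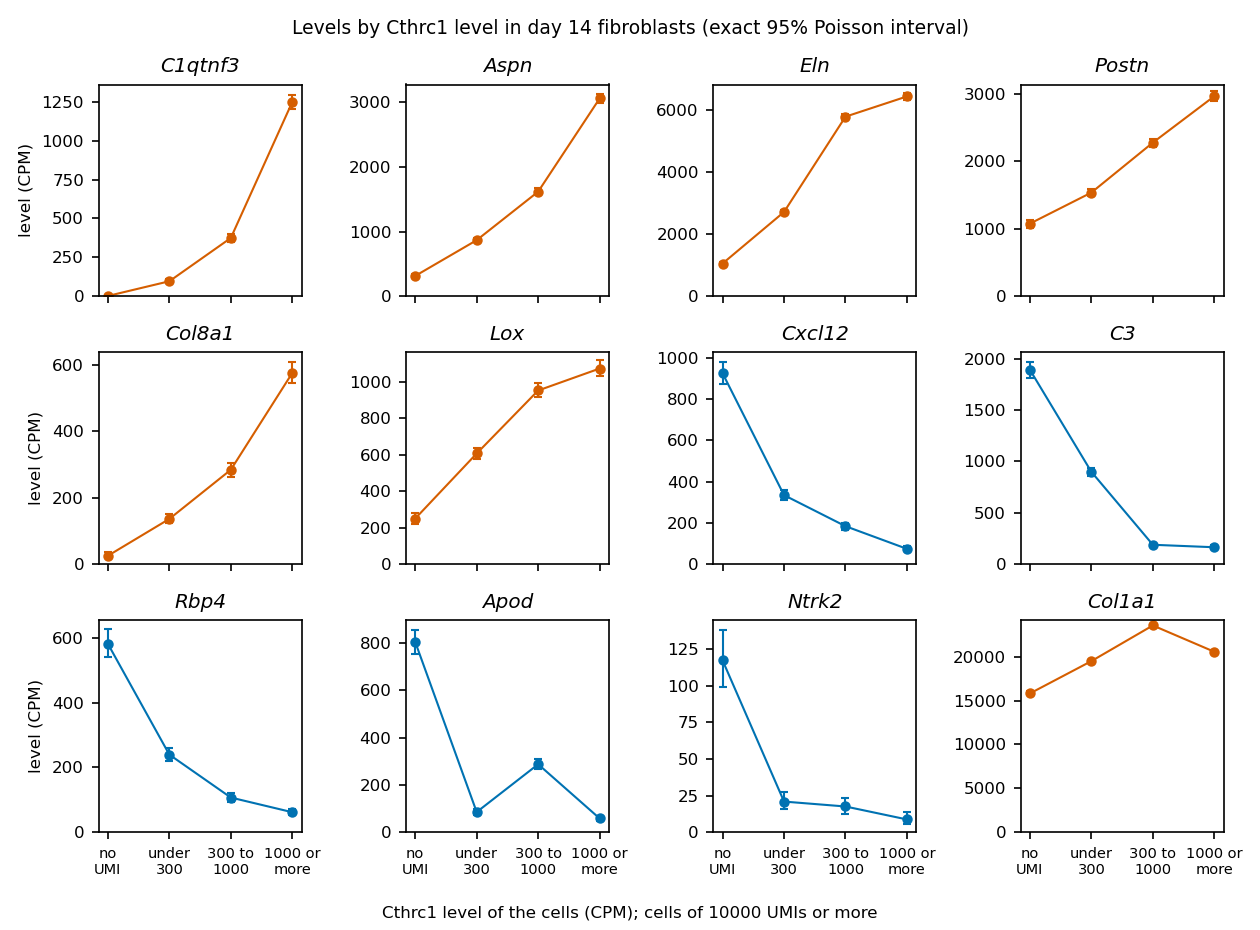
CPM (vertical, each panel with its own scale from 0) of 12 genes in day 14 fibroblasts of at least 10000 UMIs, grouped by their Cthrc1 level (horizontal, in CPM) into 70, 129, 104 and 83 cells; bars are exact 95% Poisson intervals. C1qtnf3, Aspn, Eln, Postn, Col8a1 and Lox are higher in each next bin, Cxcl12, C3, Rbp4 and Ntrk2 lower, and Apod and Col1a1 follow no single order.

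The same split was made in the day 7 and day 3 libraries. The day 3 library has no barcode in common with day 14, and the 64 in common with day 7 include 3 of the day 14 fibroblasts and 28 of those at day 7. There the negative cells were very shallow, with a median of 1425 UMIs against 29968.5 in positive cells at day 7 and 1787 against 50598 at day 3. Over 2523 genes the log2 ratios of days 14 and 7 had a Pearson r of 0.448 and a Spearman rho of 0.386, across genes, which are not independent. Of 105 genes higher at day 14 and compared at day 7, 71 were also higher there and 8 lower, in a comparison where 21.3% of genes were higher and 20.9% lower. Of 119 lower genes 69 were also lower and 11 higher. At day 3, over 2399 genes, r was 0.379 and rho 0.317, and 35 of 80 higher genes were also higher, against 10.9% of all genes, and 71 of 117 lower genes also lower, against 14.7%.

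Single genes followed suit. Nov measured 633 against 90.9 CPM at day 7, 6.96-fold (4.28 to 12.2), Col8a1 386 against 56.8 CPM, 6.79-fold, and C1qtnf3 168 against 11.4 CPM from 2 UMIs in negative cells. Ccl2 went the opposite way, with 499 CPM in positive and 182 CPM in negative cells at day 7, 2.74-fold higher (1.94 to 4.02), while at day 14 it was 18.7 against 223 CPM. Ptx3, below the level limit at day 7, had 184 UMIs in positive cells and 1 in negative cells there, a log2 ratio of 2.74 against -2.73 at day 14.

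Against the uninjured artery, every fibrillar collagen gene compared was higher at day 14. Of 3011 genes compared, 144 were at least 2-fold higher at day 14 than at day 0 (4.78%) and 119 at least 2-fold lower (3.95%), with a median log2 ratio of -0.11. Without shared barcodes in any library the counts were 194 and 147, among them 127 and 92 of these genes. The 6 fibrillar collagens had a median of 2.02: Col3a1 measured 3580.5, 16814, 24596 and 26763 CPM by day, and Col1a1 5016, 12691, 17956 and 20496 CPM. Day 14 was thus 7.47-fold above day 0 for Col3a1 and 4.09-fold for Col1a1. Of 10 other collagens 6 were higher and none lower, and Col8a1 measured 5.41, 51.7, 374 and 272 CPM.

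Several genes had few or no UMIs at day 0. C1qtnf3 measured 0.451 CPM (1 UMI), 0.721, 162 and 446 CPM by day, so that its highest level fell at the last time point. Fbn2 had no UMI at day 0 and 120.1 CPM at day 14, at least 88.8-fold higher against a floor of 3 counts over the group. The exact 95% lower limit of its ratio was 72.1. By the same floor Thbs1, a thrombospondin that activates TGF-beta, was at least 80.7-fold and H19 at least 79.8-fold higher, with exact lower limits of 65.5 and 64.8. Thbs4 measured 3.61, 0.180, 42.8 and 181 CPM, Mest, an imprinted gene, 4.96, 1.98, 21.7 and 128 CPM, and Angptl1 37.0, 54.3, 147 and 648 CPM. Like C1qtnf3 these were highest at day 14. Palld, an actin crosslinker, measured 1.35, 80.1, 172 and 104 CPM and was highest at day 7, while Col5a3 measured 10.4, 139, 102 and 140.3 CPM. Apod was 15.9-fold higher at day 14 than at day 0, with 41.1% of its day 14 UMIs in 1 cell.

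Matricellular genes had 8 of 16 higher and 3 lower against day 0. Postn measured 177, 505, 2389 and 2035 CPM by day, Fn1 321, 1012, 2514 and 1955 CPM, and Nov 36.1, 144, 614 and 345 CPM. Aspn, of the leucine-rich proteoglycans, measured 202, 135, 912 and 1541 CPM. Immediate early genes were higher at day 14 in 9 of 16, with a median of 1.13, and Fos measured 601, 449.9, 1037 and 2081 CPM and Atf3 29.8, 126, 217 and 259 CPM. Their link to handling of the tissue was not tested. Endoplasmic reticulum chaperones went the other way, with 6 of 21 lower and none higher, among them Hyou1 at 84.3 CPM at day 0 and 29.0 CPM at day 14 and Sdf2l1 at 174 and 54.9 CPM.

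Of 13 adventitial genes 1 was higher and 2 were lower at day 14 than at day 0, with a median of -0.37. At the low end of the ratios, Adamtsl2, a microfibril-associated protein, measured 102 CPM at day 0 and 3.14 CPM at day 14, 32.5-fold lower. AI507597 was 18.9-fold lower, the complement component C7 13.1-fold lower at 17.3 against 227 CPM, and Lamc3 8.31-fold lower at 29.7 against 247 CPM. The glucocorticoid-activating enzyme Hsd11b1 measured 11.5 against 104 CPM, the prostaglandin receptor Ptgfr 13.5 against 109.6 CPM, and the hedgehog-binding protein Hhip 12.7 against 96.5 CPM. Cytl1 measured 19.5 against 179 CPM, and 1 day 0 cell held 41.6% of its UMIs there. Pi16 measured 3026, 384, 679 and 1361 CPM from day 0 to day 14, Gsn 10476, 591, 720.4 and 3461 CPM, and Clec3b 2239, 309.6, 325 and 1291 CPM. All 3 were lowest at day 3 and stood at day 14 between days 7 and 0.

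Against day 3, of 2964 genes 252 were higher at day 14 (8.5%) and 194 lower (6.55%), with a median of -0.07, and without shared barcodes 169 and 131, with 151 and 125 of these genes among them. With mitochondrial and ribosomal protein genes left out of the totals the split became 242 higher and 324 lower. Saa3, a serum amyloid A protein of acute inflammation, measured 0.451, 3460.3, 550.2 and 4.60 CPM by day, and the siderophore-binding Lcn2 1.80, 665, 352 and 2.24 CPM. The neutrophil chemokine Cxcl5 measured 3.16, 383, 122 and 4.60 CPM. Day 14 lay within a few CPM of day 0 for each of them. Of 11 acute-phase and stress genes 9 were lower than at day 3 and 1 higher, with a median of -1.92, and of 12 chemokines and cytokines 7 were lower and 2 higher. Ccl2 measured 4.06, 952, 488 and 52.4 CPM. Macrophage markers summed to 106 CPM in the day 3 fibroblasts, with a UMI in 71.9% of them, against 48.3 CPM and 43.1% at day 14, and neutrophil markers to 70.9 against 0.448 CPM, with 79.1% of their day 3 UMIs in 1 cell. The part of such cells was not tested. Osteopontin, Spp1, measured 4.51, 255, 325 and 9.42 CPM, though 1 cell held 65.1% of its day 3 UMIs. Lubricin, Prg4, measured 111, 514, 50.3 and 15.6 CPM, and the protease inhibitor Serpinb1a 18.5, 416, 65.8 and 19.8 CPM.

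Proliferation and glycolysis genes were also lower than at day 3. Of 6 cell cycle genes compared 5 were lower, with Top2a at 1.80, 104, 47.1 and 16.5 CPM by day and Ube2c at 3.16, 147, 54.9 and 9.53 CPM. The histone gene Hist1h2ap measured 11.7, 277, 159 and 13.8 CPM, and 1 cell held 82.1% of its day 14 UMIs. Of 9 glycolysis and hypoxia genes 7 were lower and 1, Adm, higher. Gapdh measured 516, 1097, 704 and 271 CPM and Ldha 171, 509.5, 318 and 166 CPM, so that day 14 was at or below day 0 for both.

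Genes higher than at day 3 were found in many lists, among them 9 of 17 immediate early genes, 7 of 10 other collagens and 7 of 15 elastic fibre genes. Of 6 leucine-rich proteoglycans 4 were higher, with a median of 2.72, and fibromodulin, Fmod, measured 356, 11.5, 108 and 196 CPM. Of 13 adventitial genes 7 were higher and 1, Ly6a, lower. Of 8 lipid genes 4 were higher and 1 lower. Lpl, lipoprotein lipase, measured 134, 23.8, 90.3 and 442 CPM, and Apoe 2728, 242, 417 and 2352 CPM. Of 10 complement genes 7 were higher, among them C4b at 242, 174, 163 and 499.6 CPM, and Cfb was lower. Cartilage and tendon genes had 6 of 7 higher, led, apart from Col2a1 of 1 cell, by Cilp with 48.2, 8.29, 53.3 and 286 CPM. Of 17 matricellular genes 8 were higher and 2 lower, and Thbs4, with 1 UMI at day 3, stood furthest apart. The carboxypeptidase relative Cpxm2 measured 109, 2.88, 88.3 and 276 CPM, the glypican Gpc3 51.4, 3.07, 16.3 and 235 CPM, the growth factor midkine, Mdk, 233, 18.2, 164 and 446 CPM, and the thioredoxin inhibitor Txnip 544, 26.5, 79.3 and 442 CPM. All but Txnip exceeded their day 0 level at day 14.

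Against day 7, of 2989 genes 108 were higher (3.61%) and 92 lower (3.08%), with a median of -0.01, and without shared barcodes 81 and 73, with 77 and 64 of these genes among them. With every cell weighted alike the split became 111 higher and 217 lower. None of 7 fibrillar collagens and none of 11 other collagens passed 2-fold. Elastin was lower, with 1939.9, 1914, 14159.5 and 4388 CPM by day, as were tenascin C, Tnc, with 0, 40.0, 210.2 and 52.0 CPM, and Thbs1, with 0, 42.0, 447 and 109 CPM. Of 18 matricellular genes 3 were higher and 6 lower, and of 17 contractile and myofibroblast genes 6 were lower and none higher, including Acta2 at 209, 336, 577 and 166 CPM and Tagln at 35.6, 57.9, 257 and 84.2 CPM. Both are genes of the contractile limit of the rule, whose genes summed to 956 CPM at day 7 and 393 CPM at day 14. Smooth muscle markers outside the rule summed to 155 and 116 CPM, and pericyte markers to 627 and 480 CPM. The part of such cells was not tested.

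Of 11 acute-phase and stress genes 5 were lower than at day 7 and 1 higher, and Lcn2 and Saa3 were 157-fold and 120-fold lower. Of their day 7 UMIs, 1 cell held 42.2% for Lcn2 and 1 cell 34.7% for Saa3. Over the processing alternatives the log2 ratio ran from -8.81 to -3.23 for Lcn2 and from -7.39 to -3.85 for Saa3. Of 12 chemokines and cytokines 7 were lower and 2 higher, with a median of -1.19 that became 0.026 without either copy of shared barcodes. Of the 29 day 7 fibroblasts left out there, 1 was the copy with fewer UMIs. Cxcl2, a neutrophil chemokine, measured 0, 94.3, 307 and 19.7 CPM. Of 13 interferon genes 5 were lower and none higher. Isg15 measured 40.6, 426, 186 and 58.0 CPM, and Rsad2 133 CPM at day 7 against 2.92 CPM at day 14, with 95.4% of its day 7 UMIs in 1 cell. H2-Ab1, a class II antigen chain, measured 93.1 against 9.75 CPM. Macrophage markers summed to 247 CPM in the day 7 fibroblasts, with a UMI in 85.3% of them, against 48.3 CPM at day 14, and neutrophil, T cell and dendritic cell markers were also higher at day 7, at 13.3, 15.3 and 18.5 CPM against 0.448, 5.27 and 4.48 CPM. The Ptprc barcodes of day 14 held 3122 CPM of Cxcl2 and 4556 CPM of H2-Ab1. The part of such cells in these levels was not tested.

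Of 9 genes of the insulin-like growth factor axis 2 were higher than at day 7 and none lower. Igfbp5 measured 1491, 85.3, 189 and 1072 CPM, and Apoe was 5.65-fold higher (5.40 to 5.91). Gpc3 was 14.4-fold higher (11.5 to 18.2), the collagen VI chain Col6a6 9.48-fold at 90.5 against 9.54 CPM, and the fibulin Fbln7 7.84-fold at 271 against 34.6 CPM. The vasodilator peptide adrenomedullin, Adm, measured 114 against 14.9 CPM, tissue factor, F3, which starts coagulation, 271 against 38.0 CPM, and the carboxypeptidase Cpz 167 against 27.6 CPM. The log2 ratios of Igfbp5, Apoe, Gpc3, Col6a6, Fbln7 and F3 were 2.50, 2.50, 3.85, 3.24, 2.97 and 2.84. Over the processing alternatives they fell as low as 1.43, 1.06, 3.15, 1.53, 1.39 and 1.61. Of 13 adventitial genes 6 were higher and none lower, and of 9 lipid genes 5 were higher and 1 lower. Of 10 complement genes 3 were higher.

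**Figure D4:**
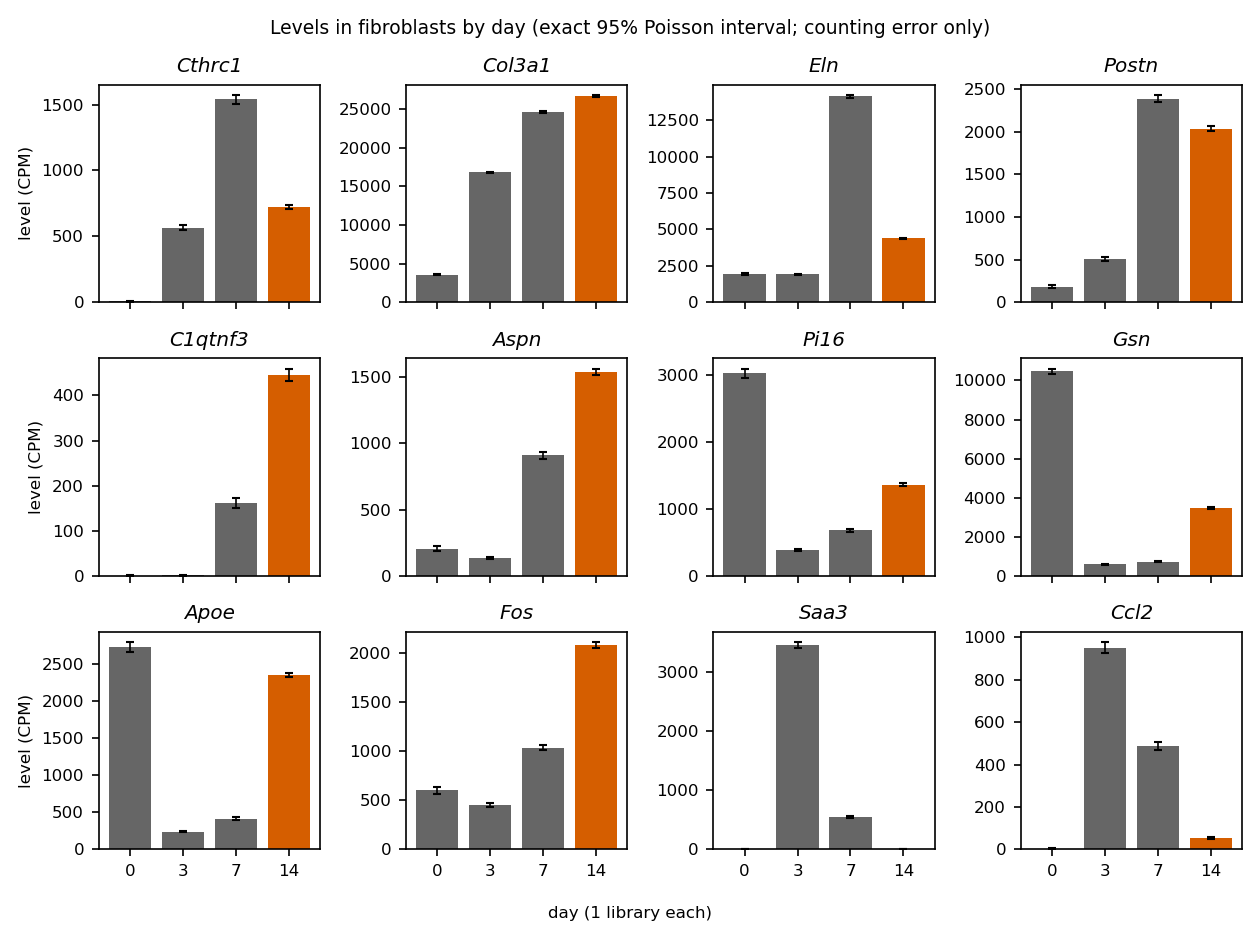
CPM (vertical, each panel with its own scale from 0) of 12 genes in the fibroblasts of days 0, 3, 7 and 14 (horizontal, 1 library each, day 14 in orange), with exact 95% Poisson intervals. C1qtnf3, Aspn, Col3a1 and Fos are highest at day 14, Cthrc1, Eln and Postn at day 7, Saa3 and Ccl2 at day 3, and Pi16, Gsn and Apoe at day 0.

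Variation between the day 14 fibroblasts was measured as the Fano factor, the variance of UMIs per cell over their mean, after thinning each cell to 1000 UMIs, where counts that vary by sampling alone give 1. Over 3008 genes the median was 1.04, and 109 genes reached 2. Of these, 81 still did when the cell with the most UMIs of the gene was left out. Malat1 had a factor of 23.6 and 20.6 without its highest cell, Eln 17.6 and 13.9, Col3a1 13.1 and 12.7, Cst3 12 and 10.9, and Mgp 11.8 and 11.0. Ccl2, at 10.8 and 8.89, Igfbp5, at 9.92 and 8.37, C3, at 6.44 and 5.99, and Gsn, at 6.05 and 5.44, were also well above 1, and Cthrc1 had 2.38 and 2.03. For Col2a1 the factor went from 60.1 to 0.998 and for the macrophage lysozyme Lyz2 from 20.3 to 0.990, so that 1 cell set the place of each. For Apod it went from 34.5 to 9.16.

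**Figure D5:**
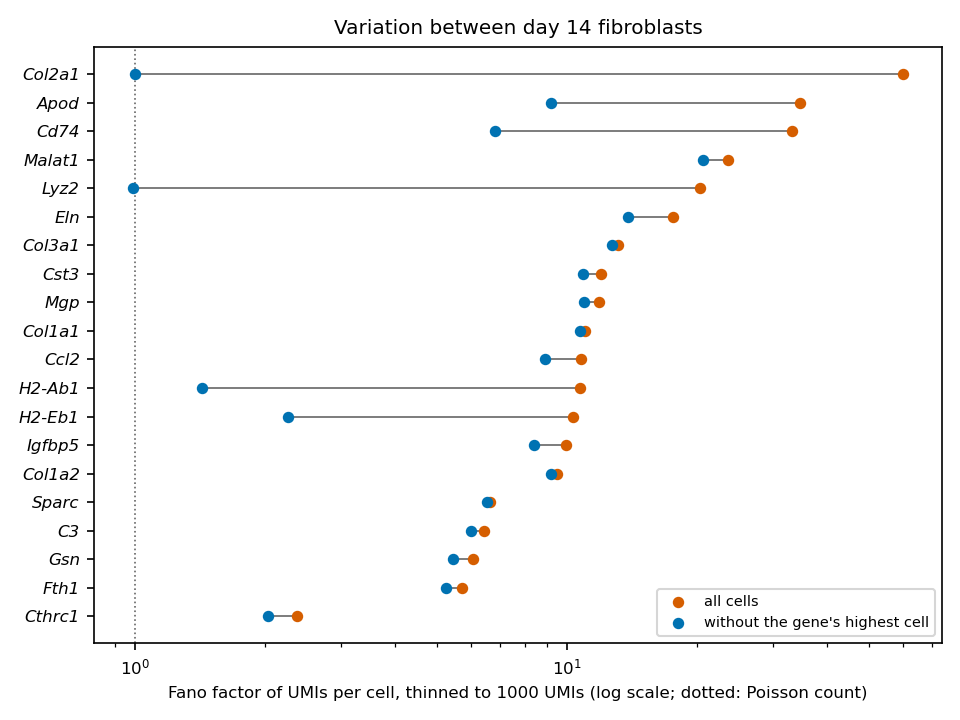
Fano factor of UMIs per cell in the day 14 fibroblasts thinned to 1000 UMIs (horizontal, log scale, dotted line at 1 for counts that vary by sampling alone) for 20 genes, with all cells and with the cell holding the most UMIs of the gene left out. Col2a1 and Lyz2 drop to about 1 without 1 cell, from 60.1 and 20.3, whereas Eln, Col3a1, Cst3 and Mgp stay above 10.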

How the data were processed

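Gene counts (UMIs) per cell barcode were deposited as 10x matrices, 1 per library, which the authors made with Cell Ranger. The submitters' processing notes name Cell Ranger and the build GRCh38, a human build name for mouse reads, so no coordinates were taken from the files. File headers give Cell Ranger 3.0.2, and the study's methods name another version.

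Barcodes were selected by the rule in the report, UMIs were summed over the cells of a group, and levels were expressed as CPM. Genes with a mean of at least 50 CPM over both groups were compared by ratio, with exact conditional binomial intervals, and a count of 0 was replaced by 3 counts in a ratio. Single levels have exact Poisson and shares exact Clopper-Pearson intervals at 95%. With 1 library per time point no test was run. Genes past 2-fold (days) or 1.5-fold (Cthrc1) were counted. For each comparison the 12 highest and 8 lowest ratios were named (without rule genes, Cthrc1, mitochondrial, ribosomal, haemoglobin and unnamed genes), with the 15 highest levels and Fano factors and the extreme members of 26 gene lists. Members and lists were chosen with earlier results of these data known. Doublets were not removed. The caller Scrublet, at its own threshold, marked 2 of the 1138 day 14 barcodes, too few to rely on, so an alternative left out the 10 highest scores. Promoters are RefSeq windows of GRCm38.p6. Python 3.11.15, numpy 2.4.6, scipy 1.17.1, pandas 2.3.3 and scanpy 1.11.5 were used, and the scripts were tested on simulated data.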

Additional observations from a re-analysis of the deposited data

Results flagged for a closer look

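Ccl2, the monocyte chemokine, was lower in Cthrc1-positive than in Cthrc1-negative fibroblasts at day 14, with a log2 ratio of -3.58, and higher in them at day 7, with a log2 ratio of 1.46. The difference between the days was not tested. At day 14 a single cell held 58.3% of the Ccl2 UMIs of positive cells and another 49.4% of those of negative cells, and at day 7 the negative cells held 32 Ccl2 UMIs. Ptx3, a soluble pattern recognition protein, had a log2 ratio of -2.73 at day 14 and of 2.74 at day 7, and this difference was not tested either. The day 7 value rests on 1 Ptx3 UMI in negative cells, at 37.9 against 5.68 CPM.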

How the results depend on the processing

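No paired analysis was possible because each time point is 1 library without replicates, which also leaves nothing to leave out in turn. With a limit of 20 UMIs in place of 50 CPM, 1220 genes were higher and 1163 lower in Cthrc1-positive cells, and 1093 and 533 against day 0, 1529 and 970 against day 3 and 762 and 954 against day 7. With 200 CPM these were 42 and 49, 49 and 39, 88 and 76, and 38 and 28. At 2-fold (Cthrc1) and 3-fold (days) they were 49 and 59, 66 and 49, 105 and 79, and 39 and 47. The lower genes numbered 103 for Cthrc1 within depth quartiles, 324 against day 3 without mitochondrial and ribosomal genes and 217 against day 7 with cells weighted alike. The fibroblast share was 60% at no more than 5% mitochondrial UMIs, and the Cthrc1-positive share 77.6% from 3000 UMIs and 32.7 and 52.3% thinned to 1000 and 3000 UMIs. Col2a1, carried by 1 cell, turned to -6.29 (thinned) and -0.25 (depth quartiles) in the Cthrc1 contrast and, without cells over 30000 UMIs, to -1.08 against day 3 and -0.48 against day 7. Without either copy of shared barcodes (one of 4 alternatives added once the data had been seen) the chemokine median against day 7 turned to 0.026 and Hist1h2ap to 0.29. Without the 1 cell with most of its UMIs, Apod turned to 0.50 in the Cthrc1 contrast, with a positive cell of 561 Apod UMIs still included. The cell cycle median against day 7 became 0.040 with contractile genes under 0.2%, and with 200 CPM the basement membrane and cartilage medians against day 0 became -0.53 and -0.29. The cause was not tested. Of the other values of single genes, 1106 moved by less than their counting interval and 230 by more, and of list medians 433 and 199. Genes of few UMIs or few cells are limited by depth.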

Other observations

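Some genes absent from most day 14 fibroblasts were concentrated in single cells that met the rule. A cell of 39555 UMIs held 1762 of the 1782 Col2a1 UMIs, 118 of 137 for the cartilage proteoglycan gene Acan and 141 of 144 for Col9a1, with 1.05% of its UMIs from the fibroblast rule genes. A cell of 24474 UMIs held 526 of the 530 UMIs of Col10a1, the collagen of hypertrophic cartilage, and sat at the edge of the rule with 0.102% of rule genes. A cell of 53116 UMIs held 90 of 100 UMIs of the proliferation gene Mki67 and 135 of 147 of Top2a, beside 123 Cthrc1 UMIs. A cell of 1356 UMIs held 59 of the 230 UMIs of the class II invariant chain Cd74 and 34 of the 155 of Lyz2. No other fibroblast held more than 4 Acan or 1 Col2a1 UMIs.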
